A study of Gallus gallus with 6 samples.

Results

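Elastic fibre proteins and the lysyl oxidases that cross-link them were followed as 10 genes (ELN, FBN1, FBN2, MFAP2, MFAP5, FBLN1, FBLN5, LOX, LOXL1 and LOXL2) in cultured chicken primordial germ cells (PGC) and cultured chicken embryonic fibroblasts (CEF). Members were all probe sets of the Affymetrix chicken array whose single annotated gene symbol was one of these. Each of the 10 genes had at least 1 probe set, and together they had 22 of the 38439 probe sets tested and made up 10 of 13009 named genes. PGC are the cells that later form eggs and sperm. They had been cultured from dorsal aorta blood of embryos at day 2.5, 20 embryos being pooled for each replicate. Their medium was knockout DMEM, to which human basic fibroblast growth factor had been added at 10 ng/ml. The CEF had been grown from the bodies of embryos at day 6.5, with 5 embryos for each replicate, after internal organs and limbs were taken away. They were kept in DMEM with 10% fetal bovine serum and used at passage 2. Each group had 3 arrays of pooled embryos, which the titles call biological replicates, and RNA came from 1500000 cells per PGC replicate and 6000000 cells per CEF replicate. Embryonic age, starting tissue, medium and cell type changed together and cannot be told apart in this design.

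Elastic fibres give skin, lung and large arteries their recoil. Their core is cross-linked elastin, deposited on a scaffold of microfibrils, which are built from fibrillins together with small microfibril-associated glycoproteins. Fibulins link elastin to the microfibrils and to the cell surface. The copper-dependent lysyl oxidases oxidise lysine residues of elastin and collagen so that the chains become covalently joined. In embryos these proteins are made mainly by mesenchymal cells, among them fibroblasts and smooth muscle cells.

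All levels are deposited expression values taken as log2, and all differences are PGC minus CEF on that scale, so that a negative difference means a lower level in PGC. Differences are given with the standard error from limma, a linear model fitted to all probe sets, and with a p-value that takes all 38439 probe sets into account (Benjamini-Hochberg adjustment). A gene was represented by its brightest probe set, the one with the highest mean over the 6 arrays. It was called where its adjusted p was under 0.05 and its difference at least 2-fold. The background level was set at the 95th percentile of 687 probe sets that carry neither a chicken identifier nor a gene symbol, and averaged 1.68 on PGC arrays and 1.97 on CEF arrays. Each probe set binds its target with its own efficiency, so levels of different genes were not compared with each other. The spike-in cre was used as a bright reference, and its means are given beside those of the other spike-ins. It does not mark the end of the scale: the highest values were 12.52 on PGC arrays and 12.51 on CEF arrays.

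Markers of the labelled cell types differed as the labels name them: 10 of 10 germ cell markers were higher in PGC. Of 12 fibroblast markers 10 were higher in CEF, and PDGFRA and TCF21 were not called. Some markers of other cells also differed between the groups. For comparison, 14.9% of all genes were called higher in CEF and 17.6% in PGC. The mean level of 7 smooth muscle markers ran from 1.73 to 1.80 on PGC arrays and from 5.19 to 5.30 on CEF arrays. Higher in CEF were 4 of 7: TAGLN, at a CEF mean of 11.38, ACTG2, ACTA2 and MYOCD. MYH11, the smooth muscle myosin heavy chain, and SYNPO2 were not above background on any array of either group. For 10 leukocyte markers the list mean ran from 2.51 to 2.60 on PGC arrays and from 4.36 to 5.72 on CEF arrays, with 8 higher in CEF and 1 in PGC. Endothelial markers averaged 2.07 to 2.12 in PGC and 3.45 to 3.74 in CEF, where CDH5, TEK and EMCN lay at background level. Higher in CEF were 5 of 12: ERG, at a CEF mean of 7.28, CLDN5, FLT4, VWF and FLT1. Of 11 cartilage and bone markers 3 were higher in CEF and 1 in PGC, with means of 3.03 to 3.11 in PGC and 3.50 to 3.74 in CEF. Of 9 skeletal and cardiac muscle markers 5 were higher in CEF, while 3 of 7 neural and 2 of 5 epithelial markers were higher in PGC. Limma called 0 of 5 erythroid markers (2 higher in CEF and 0 in PGC at an unadjusted p under 0.05). Of the 12 erythroid markers listed, 7 were not measured, GATA1 and ALAS2 among them, so this list is covered only in part. The part of these cells in the levels below was not tested, and in bulk RNA fewer cells of a type and less RNA per cell cannot be told apart. Arrays correlated across probe sets at 0.997 within PGC and at 0.980 to 0.987 within CEF, and the median SD of a probe set was 0.0953 in PGC and 0.203 in CEF.

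Elastin, fibrillin-1, both microfibril-associated glycoproteins, both fibulins and the 3 lysyl oxidases were called lower in PGC than in CEF. By limma, 9 of 10 genes were thus higher in CEF, where 14.9% of all 13009 genes were, and FBN2 was not called. On arrays scaled to the bacterial spike-in controls bioB, bioC and bioD, 5 of 10 were called, with a median of -1.45. The calls of ELN, FBN1, FBLN1 and LOXL1 ended there. These controls averaged 6.44 on PGC arrays and 7.42 on CEF arrays, while the spike-in cre averaged 11.21 and 11.34. Scaling to cre was not tried. None of the 10 genes was higher in PGC (0 genes, also at an unadjusted p under 0.05). As deposited, the median difference of the 10 genes was -2.43, against -0.05 over all genes, and the single differences ran from -6.24 for LOXL2 to -1.38 for FBLN1. In all 10 genes every CEF array lay above every PGC array, which held for 35.5% of all genes. For FBN1, however, CEF replicate 1 was under its own background level. Counted by probe set, 15 of 22 were called higher in CEF (10.1% of all probe sets were) and 0 in PGC, and 20 of 22 had every CEF array above every PGC array, as 31.3% of all probe sets did.

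**Figure D1:**
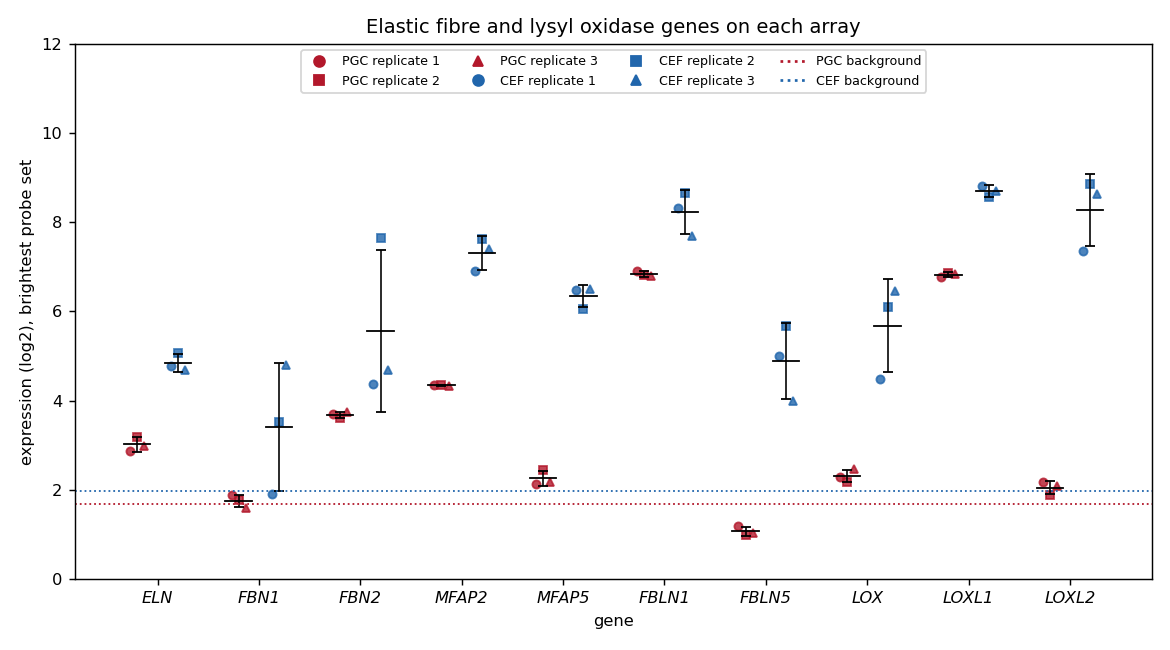
Log2 expression (y axis) of the brightest probe set of each gene (x axis) on each of 3 PGC arrays (red, left) and 3 CEF arrays (blue, right), with symbols for replicates 1 to 3, black lines for the mean and bars for the SD. The dotted lines are the mean background levels of 1.68 (PGC) and 1.97 (CEF); every gene lies higher on the CEF arrays, and FBN2 and FBN1 spread widely among them.

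ELN encodes tropoelastin, the soluble subunit of elastin. Its single probe set read 2.87, 3.19 and 2.98 on the PGC arrays, against 4.78, 5.08 and 4.68 on the CEF arrays. The groups did not overlap, and both were above background. The difference was -1.83 ± 0.16 (adjusted p = 2.2e-05), that is 3.56-fold higher in CEF. After spike-in scaling it came to -0.85, under the 2-fold minimum. Over all probe sets the median difference was 0.89 after that scaling, against -0.09 as deposited, so every gene was shifted towards PGC.

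FBN1 encodes fibrillin-1, the main structural protein of microfibrils and the gene mutated in human Marfan syndrome. It had 3 probe sets. The brightest read 1.88, 1.76 and 1.60 in PGC, at or near background, and 1.90, 3.52 and 4.79 in CEF. CEF replicate 1, under its own background level of 1.96, thus lay just above the highest PGC array, and CEF replicate 3 far above it. The difference of -1.66 ± 0.59 was called narrowly (adjusted p = 0.046), and the call ended when any single array other than CEF replicate 1 was left out (adjusted p between 0.087 and 0.12, with a difference of -0.97 without CEF replicate 3). It also ended after spike-in scaling (-0.68, adjusted p = 0.27).

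A second FBN1 probe set showed little spread in either group. It read 1.52, 1.55 and 1.59 in PGC, not above background, and 3.29, 3.21 and 3.57 in CEF. Its difference was -1.81 ± 0.14 (adjusted p = 9.8e-06), at least 3.19-fold higher in CEF when PGC is set at its background. The third differed by -0.79 ± 0.13 and was under the 2-fold minimum. All 3 FBN1 probe sets therefore had every CEF array above every PGC array, but the spread among CEF arrays was seen with the brightest alone.

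FBN2 encodes fibrillin-2, the fibrillin of embryonic microfibrils. Its brightest probe set read 3.70, 3.61 and 3.74 in PGC, and 4.36, 7.64 and 4.68 in CEF. CEF replicate 2 stood 2.96 above the next CEF array, while the other CEF arrays lay much closer to the PGC arrays. With a difference of -1.88 ± 0.73 it was not called (adjusted p = 0.063). Without CEF replicate 2 the standard error shrank, but the difference came to -0.84 (adjusted p = 0.0038), under the 2-fold minimum.

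CEF replicate 2 was at the top with the other 5 FBN2 probe sets as well. In each of the 6, CEF replicate 2 was the highest array, by 0.36 to 2.96 over the next. Of the 6, 3 were called higher in CEF, 0 in PGC, and 3 were not called, with differences between -3.88 and -0.59. The largest rested on 1.38, 1.13 and 1.39 in PGC, all under background, and 4.98, 5.97 and 4.60 in CEF, a difference of -3.88 ± 0.31 (adjusted p = 1.2e-05), a CEF level at least 11.3-fold higher. With the mean of its 6 probe sets FBN2 was called (-1.95, adjusted p = 0.0090).

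**Figure D2:**
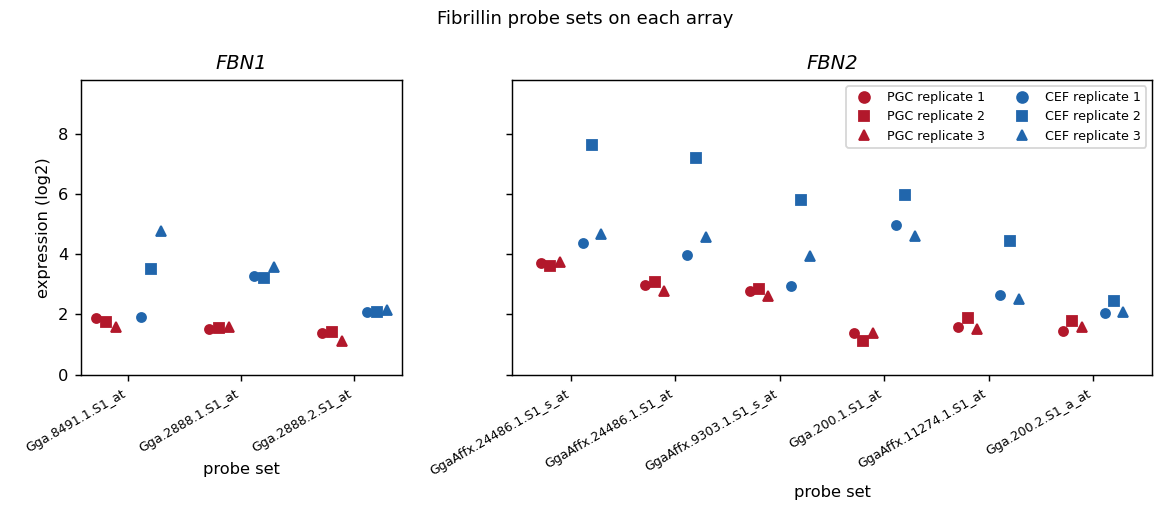
Log2 expression (y axis) of the 3 FBN1 probe sets (left panel) and the 6 FBN2 probe sets (right panel) on each PGC array (red) and CEF array (blue), with symbols for replicates 1 to 3. CEF replicate 2 (blue square) is the highest array in all 6 FBN2 probe sets, at 7.64 in the brightest, while in FBN1 only the brightest probe set separates the CEF arrays.

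FBN1 and FBN2 were compared within each array. The log2 ratio of their brightest probe sets differed between PGC and CEF by 0.22, far less than its SD of 2.13 among CEF arrays (exact permutation test, two-sided, p = 0.7). Without CEF replicate 2 that difference turned to -0.76. The brightest FBN1 probe set was at or near background in PGC and under it in CEF replicate 1, so the size of this ratio is not sure. Its wide spread among CEF arrays was not seen with the other FBN1 probe sets. With 3 arrays a group, the smallest p this test can give is 0.1, so it cannot reach the threshold.

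MFAP2 and MFAP5 encode the microfibril-associated glycoproteins MAGP-1 and MAGP-2, small proteins that bind fibrillin. MFAP2 read 4.34, 4.35 and 4.32 in PGC, and 6.90, 7.63 and 7.41 in CEF. It differed by -2.97 ± 0.18 (adjusted p = 2.5e-06), 7.85-fold higher in CEF, with PGC well above background. Its second probe set, near background on all arrays, differed by -0.32 and was not called (adjusted p = 0.061).

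By its brightest probe set, MFAP5 showed the larger difference of this pair. Its brightest probe set read 2.13, 2.45 and 2.17 in PGC, close to background, and 6.48, 6.06 and 6.50 in CEF. The difference was -4.10 ± 0.17 (adjusted p = 2.7e-07), 17.1-fold higher in CEF. The second MFAP5 probe set differed by -2.66 ± 0.33, less than the brightest MFAP2 probe set. The within-array log2 ratio of MFAP2 to MFAP5, from their brightest probe sets, was 1.12 higher in PGC. The groups did not overlap (exact permutation p = 0.1, the smallest possible). With MFAP5 close to background in PGC, the sizes of its difference and of this ratio are less sure.

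FBLN1 and FBLN5 encode fibulin-1 and fibulin-5. Fibulin-5 binds tropoelastin and is needed to assemble elastic fibres in mice, and fibulin-1 is found in elastic fibres and basement membranes. FBLN5 was under background on all PGC arrays with both probe sets. The brighter read 1.18, 0.99 and 1.03 in PGC, and 4.99, 5.68 and 3.99 in CEF. This came to -3.82 ± 0.36 (adjusted p = 3.5e-05), a level in CEF that was at least 9.19-fold higher. The second probe set gave at least 5.07-fold (-2.60 ± 0.37). Both FBLN5 probe sets ranked the CEF arrays alike, with replicate 2 highest and replicate 3 lowest.

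FBLN1 was clearly present in both cell types, and its probe sets disagreed. The one with the highest mean read 6.91, 6.82 and 6.79 in PGC, and 8.31, 8.67 and 7.69 in CEF, a difference of -1.38 ± 0.21 (adjusted p = 7.1e-04). A second probe set of similar brightness read 7.18, 7.04 and 7.08 in PGC, and 6.74, 7.65 and 6.61 in CEF. There the groups overlapped and the difference was 0.10 ± 0.24 (adjusted p = 0.76). The third lay at or near background in both groups (-0.15 ± 0.15).

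Within each array the first of these FBLN1 probe sets minus the second gave -0.27, -0.22 and -0.29 in PGC, and 1.57, 1.01 and 1.08 in CEF. Their ratio thus shifted by -1.48 between the cell types, with no overlap (exact permutation p = 0.1, the smallest possible; a comparison chosen after the values were seen). As the mean of its probe sets FBLN1 differed by -0.48 and was not called (adjusted p = 0.054), nor was it after spike-in scaling (-0.40) or when tested against a 2-fold difference with limma's treat (adjusted p = 0.30). The contrast of FBLN1 with FBLN5 has no measured size, because FBLN5 lay under background on all PGC arrays and its difference is only a bound.

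LOX, LOXL1 and LOXL2 encode copper-dependent amine oxidases. LOX is the founding member, LOXL1 acts mainly on elastin, and LOXL2 carries scavenger receptor domains and also cross-links basement membrane collagen. LOXL2 had the largest difference of all 10 genes and ranked 63 of 13009 genes counted from the strongest towards CEF. It read 2.18, 1.88 and 2.08 in PGC, just above background, and 7.36, 8.86 and 8.63 in CEF. The difference was -6.24 ± 0.35 (adjusted p = 1.4e-06), 75.4-fold higher in CEF.

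LOX read 2.27, 2.18 and 2.46 in PGC, and 4.49, 6.09 and 6.46 in CEF. Replicate 1 was the lowest CEF array, as it was for LOXL2. The difference was -3.38 ± 0.44 (adjusted p = 2.5e-04), 10.4-fold higher in CEF.

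LOXL1 had the smallest difference of the 3 oxidases and the least spread in CEF. It read 6.76, 6.87 and 6.83 in PGC, and 8.82, 8.56 and 8.71 in CEF. The difference was -1.87 ± 0.10 (adjusted p = 9.1e-07), 3.67-fold higher in CEF, and came to -0.89 after spike-in scaling, under the 2-fold minimum. In PGC the LOXL1 probe set thus read well above background, while those of LOX and LOXL2 read near it. As probe sets differ in efficiency, this does not rank the 3 oxidases by level.

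The oxidases were also set against each other within each array. LOX and LOXL2 lay near background in PGC, so the sizes of ratios that include them are less sure there. The log2 ratio of LOX to LOXL2 was 2.86 higher in PGC, and the groups were far apart (exact permutation p = 0.1, the smallest possible). That of LOX to LOXL1 was 1.50 lower in PGC (exact permutation p = 0.1), but there CEF replicate 1, at -4.33, lay next to the highest PGC array, at -4.38. Over the 5 pairs of related genes compared in this way, FBLN1 with FBLN5 included, the adjusted p was 0.125 for 4 pairs and 0.7 for FBN1 and FBN2, so no pair passed the threshold, which 3 arrays a group cannot reach.

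**Figure D3:**
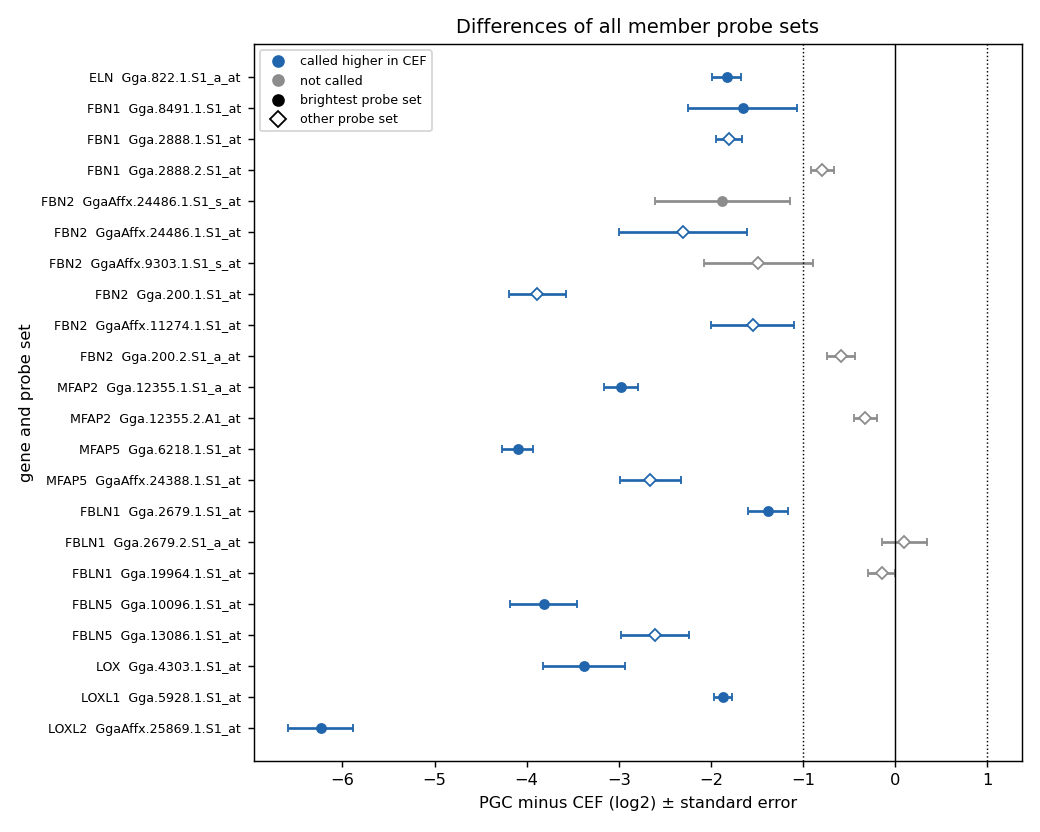
Difference between PGC and CEF (x axis, log2, PGC minus CEF, with the standard error) for all 22 probe sets of the 10 genes (y axis), filled circles for the brightest probe set of a gene and open diamonds for the others, blue where called higher in CEF and grey where not called. Dotted lines mark a 2-fold difference; LOXL2 lies furthest out at -6.24, and the second FBLN1 probe set is at 0.10.

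The CEF replicates did not rank alike over the 10 genes. Replicate 2 was the highest CEF array for 6 genes (ELN, FBN2, MFAP2, FBLN1, FBLN5 and LOXL2), where it was so for 23.8% of all genes. Replicate 1 was the lowest for 5 genes (FBN1, FBN2, MFAP2, LOX and LOXL2), against 26.9% of all genes. By their brightest probe sets, MFAP5 and LOXL1 had their lowest CEF value in replicate 2. All these orders are those of the brightest probe sets, and for some genes the lowest array depended on the probe set. With the second MFAP5 probe set, also called, replicate 1 was the lowest CEF array. With the other FBN1 probe sets and the second MFAP2 probe set it was replicate 2, and with some FBN2 probe sets replicate 3. Replicate 2 was the CEF array with the lowest mean of leukocyte markers, at 4.36, against 4.88 and 5.72 in replicates 1 and 3. It also had the highest mean of fibroblast markers, at 8.71 against 8.57 and 8.39. Its means of endothelial (3.45) and of cartilage and bone markers (3.50) were the lowest. The fibroblast markers were mixed: COL1A2, COL3A1, LUM, DCN, PDGFRB and PDGFRA were higher in replicate 2 than in replicate 1. COL1A1, POSTN, TWIST1, PRRX1, THY1 and TCF21 were lower. The widest gap was that of PDGFRA, not called between the cell types, at 1.13, 2.71 and 1.02 in CEF replicates 1 to 3. Nearly all of the lead of replicate 2 over replicate 1 in the mean of fibroblast markers came from this gene. In replicate 2 the smooth muscle markers, at 5.26, lay between those of the other CEF arrays. The part of these shifts in the members' order was not tested.

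Genes that resembled members most closely over the 6 arrays were sought by the root mean square difference of log2 values after each gene's own mean was taken off. Nearest to ELN were RWDD2B (0.0711), PPDPF (0.0874) and YIPF3 (0.0885). Nearest to LOX were CLMP (0.242), the integrin subunit ITGAV (0.304) and ESYT2 (0.305), in which CEF replicate 1 was the lowest CEF array too. Nearest to the brightest FBN1 probe set were COLEC10 (0.307), LRP12 (0.316) and CREB5 (0.387), whose CEF arrays stood in the same order as those of FBN1. All these genes share the same 6 arrays in 2 groups, so the difference between the cell types enters each likeness.

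Other genes of the elastic fibre and lysyl oxidase pathways were read from 4 lists with 58 measured genes. Of these, 27 were higher in CEF, 6 in PGC, and 25 were not called, with a median difference of -0.75. Over all genes 14.9% were higher in CEF and 17.6% in PGC. The list of microfibril and elastic fibre assembly went both ways, with 6 of 19 higher in CEF, 4 in PGC and a median of -0.46.

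Within the assembly list, the largest differences towards CEF were those of BGN, LTBP1, EMILIN2 and VCAN. The proteoglycan biglycan (BGN) was at 1.34 ± 0.25 in PGC and 5.20 ± 0.68 in CEF (SD, n = 3 each), at least 11.5-fold higher in CEF. LTBP1, which tethers latent TGF-beta to fibrillin microfibrils, averaged 6.98 in PGC and 10.62 in CEF, a difference of -3.65 ± 0.07. EMILIN2, a relative of the elastin-associated emilin-1, differed by -3.08 ± 0.09, and versican (VCAN), a large proteoglycan that binds fibrillin, by -2.50 ± 0.15. Averaged over all their probe sets, 3 of these had smaller differences and stayed called, at -2.13 for BGN, -2.32 for LTBP1 and -1.80 for EMILIN2.

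The 4 genes of this list that were higher in PGC comprised THSD4, ADAMTS17, ADAMTSL3 and FBLN2. THSD4, an ADAMTS-like protein that binds fibrillin-1, read 5.06, 5.42 and 5.37 in PGC, and 3.29, 3.14 and 3.37 in CEF (2.02 ± 0.15, adjusted p = 8.0e-06). ADAMTS17, a secreted metalloprotease linked to fibrillin microfibrils, differed by 2.01 ± 0.22 but by 0.87 as the mean of its probe sets. In CEF it read 1.75, 1.70 and 2.52, above background on replicate 3 alone, so the size is less sure. ADAMTSL3 differed by 1.58 ± 0.42 (adjusted p = 0.014), lost its call without PGC replicate 3 or CEF replicate 1, and came to -0.01 as the mean of its probe sets. Fibulin-2 (FBLN2), a relative of fibulin-1, read 6.38 on each PGC array, and 5.30, 4.62 and 5.63 in CEF. Its difference of 1.20 ± 0.23 ran opposite to that of FBLN5 and of the brightest FBLN1 probe set, and came to 0.92 without CEF replicate 2. For FBLN1 the direction is not settled, since its second probe set, of similar brightness, differed by 0.10 and was not called.

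Among 10 measured genes of the lysyl oxidase family and its activation, 5 were higher in CEF and 0 in PGC (1 at an unadjusted p under 0.05). LOXL3 read 1.57, 1.81 and 1.83 in PGC, around background, and 4.87, 5.62 and 4.95 in CEF (-3.41 ± 0.21, adjusted p = 2.8e-06). LOXL4, named here outside the rule for naming genes, was not called (-0.07 ± 0.17, adjusted p = 0.76, 0.91 after spike-in scaling). Periostin (POSTN), which binds the protease that activates LOX, differed by -10.27 ± 0.12, at least 526-fold, and fibronectin (FN1), on which LOX is activated, by -6.29 ± 0.09. FN1, at a mean of 12.44 in CEF, was brighter than the spike-in cre at 11.34. In CEF replicate 1 it read 12.51, as high as the highest value on the CEF arrays. Saturation there was not tested. PCOLCE2, an enhancer of procollagen processing, differed by -3.30 ± 0.11. As means of their probe sets LOXL3, PCOLCE2, FN1 and POSTN had smaller differences, at -2.12, -1.89, -4.69 and -9.26, and stayed called.

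Of 15 genes of folding, processing and turnover, 7 were higher in CEF and 1 in PGC. The gelatinase MMP2 (-8.59 ± 0.17), the elastin- and collagen-degrading cathepsins CTSK (-5.52 ± 0.18) and CTSS (-4.10 ± 0.31) and the collagen chaperone SERPINH1 (-4.11 ± 0.14) had the largest differences. MMP2 read 2.17, 1.74 and 1.71 in PGC, near background, so the size of its difference is less sure. CTSS is also made by leukocytes, and in CEF it followed the order of the leukocyte markers, at 6.48, 5.77 and 7.17. The part of leukocytes in its difference was not tested. POGLUT1, a protein O-glucosyltransferase of EGF repeats, was narrowly higher in PGC (1.06 ± 0.12), and its difference was 0.90 when all its probe sets were averaged.

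Of 14 genes of the TGF-beta axis, whose latent ligands are stored on microfibrils, 9 were higher in CEF and 1 in PGC. CCN2, a classical TGF-beta target, differed by -8.53 ± 0.10 and was brighter than cre in CEF. The integrin subunits ITGB3 (-4.41 ± 0.15) and ITGAV (-3.83 ± 0.31), which together bind fibrillin and latent TGF-beta, and the ligand TGFB3 (-4.21 ± 0.14) were also higher in CEF, ITGB3 by -2.05 as the mean of its probe sets. TGFBR3, betaglycan, was called in PGC (1.20 ± 0.12), although all CEF arrays were under background, so that only a bound of at least 1.32-fold can be given.

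**Figure D4:**
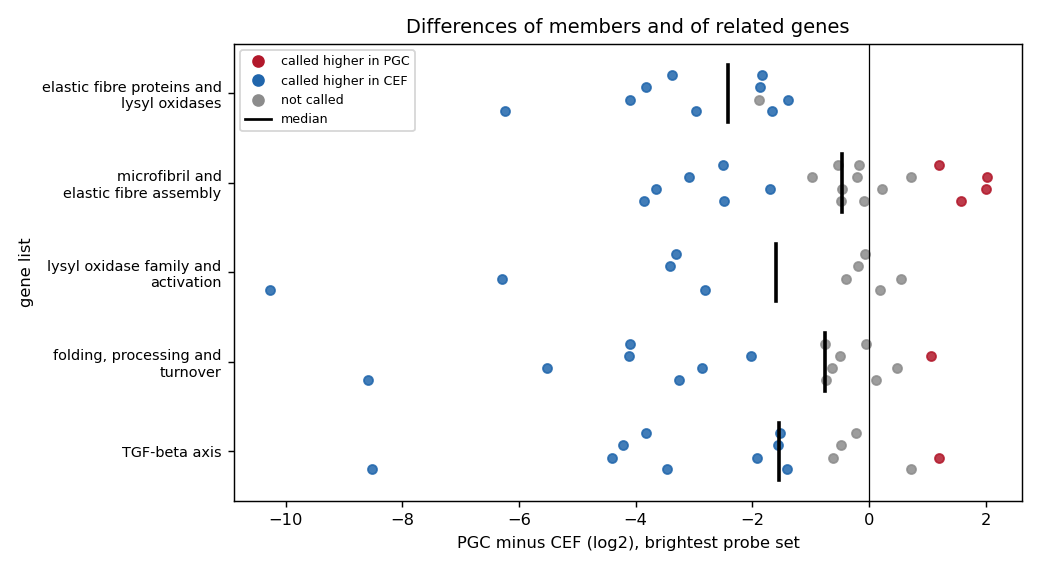
Difference between PGC and CEF (x axis, log2, PGC minus CEF) of the brightest probe set of each gene for the 10 members and 4 lists of related genes (y axis), with dots red where called higher in PGC, blue where called higher in CEF and grey where not called, and a black line at each median. The members' median is -2.43 and that of the assembly list -0.46.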

How the data were processed

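RNA of 3 PGC and 3 CEF cultures was hybridised to 6 one-colour Affymetrix chicken arrays, grouped by sample title. Values for 38535 probe sets, deposited by the authors, were taken as log2 expression already normalized between arrays. The scale was read from the values (-0.13 to 12.52). MAS5 and GCOS are listed, per the submitters' processing notes, with no role. Background correction and normalization were not given in the sources used here. After 96 AFFX controls were left out, 38439 probe sets were fitted with limma 3.58.1 in R 4.3.3 (intensity trend, cell type as the only term, 4 residual degrees of freedom). The number of arrays limits the precision. Of all probe sets 27178 had 1 gene symbol in the array annotation, 177 several and 11180 none. Symbols were matched exactly, and entries of the pathway and marker lists without a match were sought by gene ID, which matched 0 more. In all, 37 entries of these lists were not matched. Genes read only by probe sets with several symbols or none could not be matched in this way. Where all arrays of the lower group were under background, "at least N-fold" was computed against the background level of each array. The background rule was chosen after seeing the data, and members and lists with earlier results of these data known. Beside members, the text names the 4 largest called differences per pathway list and direction, calls against a list's majority, and 3 nearest genes each for ELN, FBN1 and LOX. The fit was tried on simulated data with known shifts. It called 76.1% of log2 shifts of 1.5, 89.6% of those of 2 and 100% of those of 4. SDs were shuffled among probe sets there, so the intensity trend was not tested. Tried as alternatives were 3 scalings, 3 variance settings or tests, a filter, means of probe sets, a replicate block and leaving out each array.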

Additional observations from a re-analysis of the deposited data

How the results depend on the processing

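Every member kept a negative difference under all 15 alternatives, but only the scalings and the means of probe sets could have changed a sign. The settings without the trend, with treat, with the filter and with the replicate block leave the difference itself unchanged. As every CEF array lay above every PGC array in all 10 members, leaving out or weighting arrays could not turn it. Scaling to the spike-ins changed most: 5 of 10 members stayed called higher in CEF (FBLN5, LOX, LOXL2, MFAP2 and MFAP5), 8 of 22 member probe sets, their median came to -1.45, 13 pathway genes were called in PGC, and 17515 probe sets were called in all, 9.99% of them higher in CEF against 40.9% as deposited. With limma's treat 5664 probe sets and 2 pathway genes in PGC were called. With the mean of all probe sets of a gene the member median was -1.91, and 3 pathway genes were called in PGC. The contrast of MFAP2 with MFAP5 then came to 1.73. That of FBLN1 with FBLN5 came to 2.73, which is no measured size, since FBLN5 is under background in PGC. The cause of these shifts was not tested beyond each setting's construction.

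FBN2 was called after 75th percentile centring (adjusted p = 0.040; it moved the median of all probe sets to -0.21), quantile normalization (-2.02), with array weights (-2.30), and without CEF replicate 1 or 3. FBN1 lost its call after quantile normalization (adjusted p = 0.058), without the trend (0.058) and with treat (0.72). Leaving out each array in turn gave 8 to 10 members called higher in CEF, a member median between -2.83 and -2.38, 9297 to 9703 probe sets, 27 to 28 pathway genes in CEF and 4 to 6 in PGC. Paralog contrasts then ran from -0.76 to 1.35 (FBN1 with FBN2, reversed without CEF replicate 2), -2.16 to -1.12 (LOX with LOXL1), 2.73 to 3.08 (LOX with LOXL2), 2.26 to 2.62 (FBLN1 with FBLN5, no measured size, since FBLN5 is under background in PGC) and 0.85 to 1.42 (MFAP2 with MFAP5).

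The labels state no pairing of same-numbered PGC and CEF arrays, nor whether such cultures were handled together. Deviations of same-numbered arrays correlated between -0.036 and 0.0088, and those of differently numbered arrays between -0.079 and 0.084. This cannot show whether anything besides the number was shared. With the replicate number as a block 9498 probe sets and 10 of 10 members were called (FBN2 adjusted p = 0.026).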

Other observations

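CEF replicate 2 stood further above the other CEF arrays for FBN2 than for any other gene. Ranked by how far CEF replicate 2 stood above the higher of the other CEF arrays, FBN2 was 1 of 13009 genes, at 2.96, and the next was GPR26, a G protein-coupled receptor, at 1.77. Next came PDGFRA, a receptor of mesenchymal progenitors (1.58), and KERA, the corneal proteoglycan keratocan (1.40), both low on all other arrays. PDGFRA read 1.20, 1.23 and 1.20 in PGC, and 1.13, 2.71 and 1.02 in CEF. Also among the top 10 were COL8A1, a short-chain collagen of vessel walls and cornea (7.48, 8.77 and 6.84 in CEF), and THBS2, thrombospondin-2 (8.36, 10.05 and 8.82 in CEF), both far above their PGC means of 1.06 and 1.70. The rest of the top 10 were PARPBP (1.38), CA2, a carbonic anhydrase that was called higher in PGC (1.25), VIPR2 (1.16) and BNC1 (1.15). The same ranking was not made for the other arrays. These genes were picked for this pattern in a single pool of 5 embryos, so no test bears on it.

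Both fibrillins were among the genes that varied most between CEF cultures. The range over the 3 CEF arrays was 3.28 for FBN2 and 2.88 for FBN1, ranks 10 and 15 of 13009 genes, where the median gene ranged over 0.377. For FBN1 this held for its brightest probe set and not for the 2 others. The 6 FBN2 probe sets all placed CEF replicate 2 highest.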
